A study of Mus musculus with 6 samples.

Results

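The genes described here are 39 of the 34745 genes in the deposited table of mouse islet RNA: 21 genes of the ATF4 amino acid stress response and 18 genes of aminoacyl-tRNA synthetases. They were chosen by name, and each was found in the table by its Ensembl identifier, paired with its symbol through GENCODE M21 (older names such as Aars are used for genes now also written Aars1). By role they are 4 stress transcription factors, 4 stress effectors, 8 enzymes of amino acid and one-carbon synthesis, 5 amino acid transporters and the 18 synthetases.

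RNA was sequenced as poly-A libraries from isolated pancreatic islets of C57BL/6 mice at 8 weeks of age, with 2 libraries in each of 3 groups. The KO+DNMT3A group is βRapKO islets with Dnmt3a expression, brought in by a lentivirus according to the design text. The KO group is βRapKO islets, named for the loss of Raptor (gene Rptor), the subunit that defines the kinase complex mTORC1, in beta cells. The WT group is wild-type islets. The labels name neither the Cre driver nor the promoter of the lentivirus, do not explain the letters GFP in the column names of the KO and WT libraries, and give no origin by animal for the 2 libraries of a group. The p-values therefore rest on how far libraries of a group differ, and that difference may be technical. Values are FPKM, fragments per kilobase of transcript scaled to the mapped fragments of a library, as the authors deposited them.

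ATF4 is a transcription factor whose protein is made when the initiation factor eIF2 is phosphorylated, as happens when amino acids run short or when unfolded proteins build up in the endoplasmic reticulum. It binds DNA together with C/EBP partners and switches on genes that make amino acids, import them and charge them onto tRNAs. Active mTORC1 also raises ATF4 protein. Because much of this control acts on translation and protein stability, the Atf4 transcript is only a partial readout of the pathway. Beta cells make large amounts of insulin and are known for a heavy load on the endoplasmic reticulum.

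The DNA element through which ATF4 and C/EBP factors act is shown first, because it marks which of the genes carry a possible binding sequence near their start. A core TGATGNAA, with N any base, was searched on both strands from 250 bases before to 50 bases after the annotated start, in RefSeq promoters on GRCm38.p6. Of the 39 genes, 29 matched an entry in the promoter table, and 10 of these 29 held the core, against 4.51% of all 27025 genes with a promoter there. The narrower form TGATGCAA, which is contained in the first, stood in 7 of the 29 and in 1.03% of all genes. The genes with the core were Chac1, Slc7a11, Asns, Gars, Aars, Pycr1, Tars, Trib3, Yars and Iars. In Trib3, Yars and Iars the match lay after the start. For the other 7 genes the stretch around each match before the start is printed below, 5′ to 3′ on the gene's own strand, with the core in capitals in whichever direction it reads.
Chac1: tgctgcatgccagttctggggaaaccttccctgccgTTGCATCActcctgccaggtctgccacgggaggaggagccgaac
Slc7a11: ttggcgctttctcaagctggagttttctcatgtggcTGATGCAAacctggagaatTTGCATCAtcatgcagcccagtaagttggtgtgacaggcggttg
Asns: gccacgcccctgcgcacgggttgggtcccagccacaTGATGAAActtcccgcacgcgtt
Gars: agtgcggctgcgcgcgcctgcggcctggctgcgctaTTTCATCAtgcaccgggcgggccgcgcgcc
Aars: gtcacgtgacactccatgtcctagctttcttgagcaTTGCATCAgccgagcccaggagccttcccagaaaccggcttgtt
Pycr1: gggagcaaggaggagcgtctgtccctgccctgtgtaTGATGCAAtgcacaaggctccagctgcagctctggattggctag
Tars: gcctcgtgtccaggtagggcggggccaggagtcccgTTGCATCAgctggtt
These stretches lie at chr2:119351013-119351092 (plus strand) for Chac1, chr3:50443617-50443715 (minus) for Slc7a11, chr6:7693210-7693268 (minus) for Asns and chr6:55037935-55038000 (plus) for Gars. Those of Aars, Pycr1 and Tars lie at chr8:111033694-111033773 (plus), chr11:120643808-120643887 (minus) and chr15:11399659-11399709 (minus). Slc7a11, the cystine transporter gene, held 2 matches before its start. A match describes the letters only and is not evidence of binding.

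Several facts of the libraries touch every value below. Rptor did not follow the labels: libraries labelled KO+DNMT3A had 0.71 and 1.93, libraries labelled KO 0.38 and 1.51, and libraries labelled WT 0.80 and 1.06 FPKM, all of them overlapping. Dnmt3a, at 3.62 and 3.80, 3.19 and 2.50, and 2.94 and 4.43 FPKM in the same order, was higher in both libraries labelled KO+DNMT3A than in both labelled KO, and overlapped with those labelled WT. Below, KO+DNMT3A, KO and WT stand for "the libraries labelled" so, and each direction rests on those labels; a value per gene sums all exons and all islet cells. In KO replicate 2 and WT replicate 1 the insulin genes Ins1 and Ins2 held 0.109% and 0.170% of the summed FPKM, against 16.5% to 30.5% in the other 4 libraries, while mitochondrially encoded genes held 50.9% and 44.8%, against 16.5% to 26.5%. The 9 beta cell markers summed to 1677 FPKM in KO replicate 2 and 1577 FPKM in WT replicate 1, and to between 124490 and 217960 FPKM elsewhere. Ins1, Ins2 and Iapp carry these sums, but each of the 9 was lower in both of those libraries than in any other. Nkx6-1 was 49.4 and 43.0 FPKM there, against 66.2 to 160 FPKM, and Slc30a8 43.6 and 20.7 FPKM, against 79.9 to 137 FPKM. Mafa was listed at 0 in both, but was at most 2.85 FPKM elsewhere, and Slc2a2 was listed at 0 in WT replicate 1. Depth is not stated. The smallest steps between values imply 244791 fragments in WT replicate 1 and 780239 to 1919979 in the others, so that the median gene of the 39 rests on about 11.8 fragments in WT replicate 1 and 26.2 to 86.5 in the others. In WT replicate 1, 18 of the 39 genes rest on fewer than 10 fragments, and this limits how precisely any WT mean is known.

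All 39 genes reached at least 1 FPKM in at least 2 libraries and entered the test. Their median level was 17.9 and 14.6 in KO+DNMT3A, 18.4 and 11.1 in KO, and 13.0 and 17.6 FPKM in WT, so the 3 groups overlapped and the lowest value was that of KO replicate 2. Together they held 0.178% and 0.137% of the summed in KO+DNMT3A, 0.185% and 0.105% in KO, and 0.133% and 0.185% in WT. KO replicate 2 was the lowest of the 6 libraries for 20 of the 39 genes, while KO+DNMT3A replicate 1 and KO replicate 1 were each the highest for 10. The steadiest gene was Aars, whose highest value was 1.20 times its lowest, and the most variable one never listed at 0 was Cebpb, at 9.71 times. The lowest and highest Cebpb values rest on about 6 and 10 fragments.

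**Figure D1:**
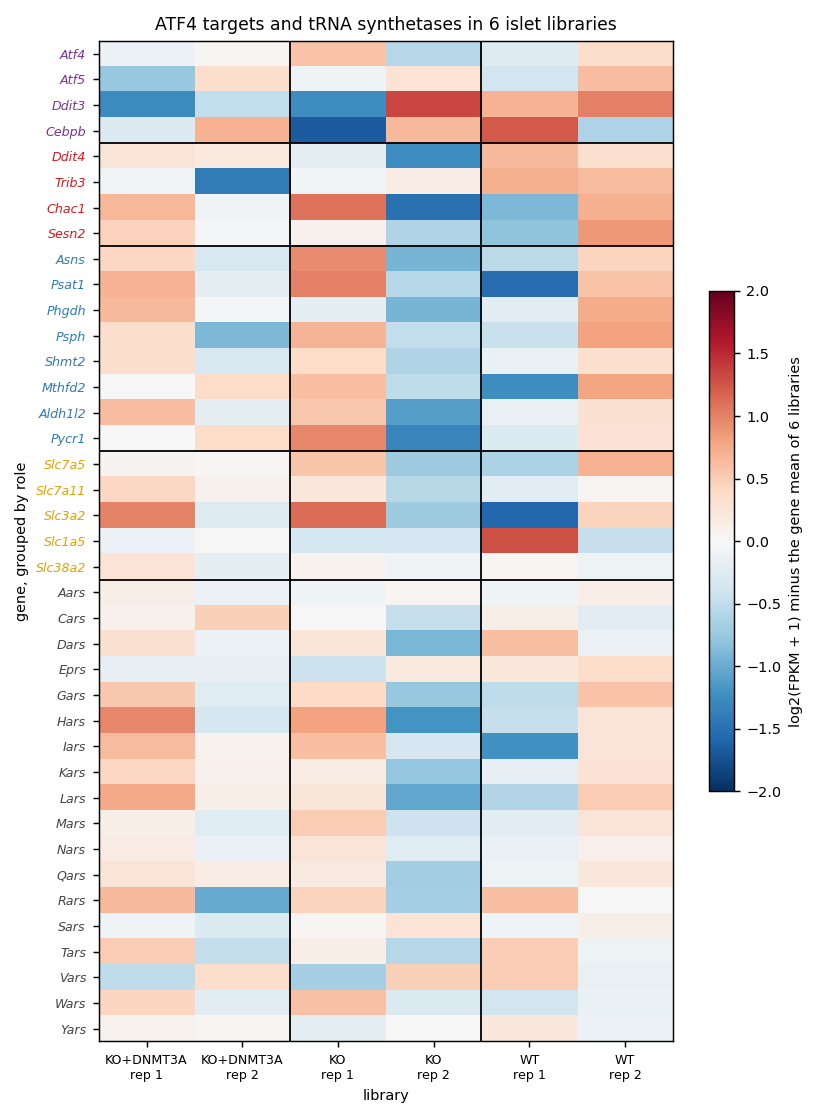
Level of each of the 39 genes (rows, in italics, coloured by role) in the 6 libraries (columns), as log2(FPKM + 1) minus the gene's mean over the 6 libraries; red is above and blue below that mean, and black lines part the roles and the groups. KO replicate 2 is blue for most enzyme, transporter and synthetase genes and is the lowest library for 20 of the 39, whereas Ddit3 is reddest there, at 114 FPKM.

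Libraries of the same group differed widely in these genes. KO replicate 1 was higher than KO replicate 2 for 29 of the 39 genes and WT replicate 2 was higher than WT replicate 1 for 28; both held for 23 genes, or 59.0%, against 40.7% of the 13233 genes tested. The 8 enzyme genes were higher in KO replicate 1 and in WT replicate 2 without exception. Of these enzyme genes, only Asns and Shmt2 rest on more than 10 fragments in WT replicate 1, about 14.0 and 11.9. The others rest on 0 to about 4.34 fragments there. In 8 of the 39 genes both differences reached 2-fold (at least 1 on the log2(FPKM + 1) scale), 20.5% against 10.2% of all genes: Chac1, Psat1, Psph, Mthfd2, Slc7a5, Slc3a2, Gars and Lars. Among these, only Gars and Lars rest on more than 10 fragments in WT replicate 1, about 13.0 and 12.4. After the values were rescaled to leave out insulin, mitochondrially encoded and rRNA-associated transcripts, 23 genes still had both differences and 6 had both at 2-fold, against 36.5% and 9.15% of all genes. The lower library of the KO and of the WT pair is the one with little insulin RNA. It is also the shallower one, at 780239 against 1425781 fragments in KO and 244791 against 973760 in WT. The KO+DNMT3A libraries, neither of them poor in insulin RNA, differed as well. Replicate 1, the deeper at 1919979 against 1117668 fragments, was higher for 30 of the 39 genes, or 76.9%, against 54.1% of all genes. In whole islets, fewer beta cells and less RNA per beta cell cannot be told apart, and the part of either, or of depth, in these differences was not tested. The KO and the WT difference both ran the other way in 5 genes, Cebpb, Trib3, Slc1a5, Vars and Yars, or 12.8% against 16.7% of all genes.

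**Figure D2:**
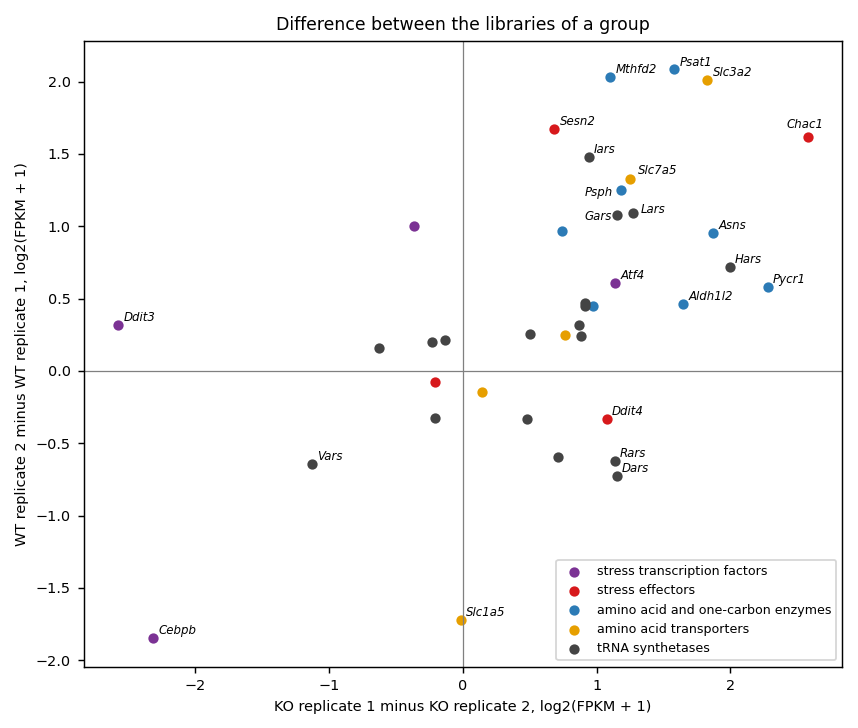
Each point is 1 of the 39 genes, coloured by role; the horizontal axis is KO replicate 1 minus KO replicate 2 and the vertical axis WT replicate 2 minus WT replicate 1, both on the log2(FPKM + 1) scale, and genes past 1 on an axis are named. The 23 genes in the upper right were lower in both libraries with little insulin RNA, while Cebpb lies at the lower left and Ddit3 at the far left.

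Of the transcription factor genes, Atf4 itself was abundant and overlapped between all groups. Atf4 (ENSMUSG00000042406, chromosome 15, 80255184 to 80257541, GRCm38/mm10) was 91.2 and 100.2 in KO+DNMT3A, 146.8 and 66.1 in KO, and 82.9 and 126.9 FPKM in WT. The KO+DNMT3A and WT values both lay between those of the 2 KO libraries. Atf5, which encodes a related factor also made under eIF2 phosphorylation, was 21.5 and 47.3 in KO+DNMT3A, 34.6 and 44.9 in KO, and 28.1 and 57.2 FPKM in WT, again with every pair of groups overlapping. Cebpb, the gene of a C/EBP partner of ATF4 that is also active in myeloid cells, was 9.0 and 18.4 in KO+DNMT3A, 2.80 and 17.9 in KO, and 27.2 and 6.83 FPKM in WT. The Cebpb value of KO replicate 1 rests on about 6 fragments, and those of both WT libraries on about 10 each. Its highest library was WT replicate 1, where the 6 duct markers also summed to 2448 FPKM, against 86.8 to 959 FPKM in the others. The 7 stellate and fibroblast markers summed to 1041 FPKM there, against 141 to 333 FPKM. Spp1 and Mmp7, at 1510 and 639 FPKM, carry the duct sum, while Krt19, Krt7 and Clu were higher in KO+DNMT3A replicate 1. Of the stellate and fibroblast markers, Pdgfrb was highest in KO replicate 2. The part of these cells in the Cebpb value was not tested.

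Ddit3, the gene of CHOP, a factor induced through ATF4 that favours cell death under lasting stress, had the largest fitted fold change of the 39 genes. Ddit3 (ENSMUSG00000025408, chromosome 10, 127290774 to 127296288) was 17.9 and 31.5 in KO+DNMT3A, 18.3 and 114 in KO, and 72.8 and 91.0 FPKM in WT. Both KO+DNMT3A libraries lay below both WT libraries, and KO replicate 1 lay among the KO+DNMT3A values while KO replicate 2 was above all others. The log2 fold change of KO+DNMT3A over WT was -1.73 with a standard error (SE) of 0.87, which did not pass (limma unadjusted p = 0.0831, adjusted p = 0.997). For KO+DNMT3A against KO it was -0.93 (SE 0.87), and 0.36 without KO replicate 2. For KO against WT it was -0.81 (SE 0.87), and 0.48 without KO replicate 1. Ddit3 shares 68 exon bases, 3.97% of its own, with Mars on the opposite strand; whether counting used strand is not given in the sources used here, and Mars, at 13.7 to 26.6 FPKM, did not follow Ddit3.

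Trib3, a stress effector, encodes a pseudokinase that ATF4 and CHOP induce and that dampens both ATF4 and Akt signalling. Trib3 (ENSMUSG00000032715, chromosome 2, 152337422 to 152344032) was 8.71 and 2.82 in KO+DNMT3A, 8.63 and 10.1 in KO, and 15.5 and 14.6 FPKM in WT. All 4 libraries labelled KO+DNMT3A or KO lay below both WT libraries. For KO+DNMT3A against WT its log2 fold change was -1.39 (SE 0.61, limma unadjusted p = 0.0515, adjusted p = 0.997), the smallest unadjusted p among the 39 genes, and -0.72 without KO+DNMT3A replicate 2. For KO against WT it was -0.63 (SE 0.61). For KO+DNMT3A against KO it was -0.76 (SE 0.61), and -0.09 without KO+DNMT3A replicate 2. The Trib3 values of KO+DNMT3A replicate 2 and WT replicate 1 rest on about 6.39 and 7.67 fragments.

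Ddit4, whose product REDD1 restrains mTORC1 through the TSC complex, had its lowest values in KO. Ddit4 (ENSMUSG00000020108, chromosome 10, 59949669 to 59951834) was 25.7 and 24.4 in KO+DNMT3A, 18.7 and 8.36 in KO, and 33.9 and 26.8 FPKM in WT. The 3 groups did not overlap, with WT highest and KO lowest. KO against WT gave a log2 fold change of -1.20 (SE 0.60, limma unadjusted p = 0.0803, adjusted p = 1), and KO+DNMT3A against KO one of 0.94 (SE 0.60, limma unadjusted p = 0.155, adjusted p = 1). Without KO replicate 2 these were -0.66 and 0.40. For KO+DNMT3A against WT it was -0.26 (SE 0.60).

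In the other effectors the libraries of a group lay far apart. Chac1, which encodes an enzyme that breaks down glutathione, was 31.5 and 18.6 in KO+DNMT3A, 42.4 and 6.26 in KO, and 9.98 and 32.6 FPKM in WT. The KO libraries differed 6.77-fold and the WT libraries 3.27-fold, and the lower value of each pair was in the library with little insulin RNA. Sesn2, whose product senses leucine and inhibits mTORC1, was 24.1 and 17.0 in KO+DNMT3A, 18.4 and 11.1 in KO, and 9.41 and 32.2 FPKM in WT, where the 2 WT libraries enclosed the values of all the others.

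**Figure D3:**
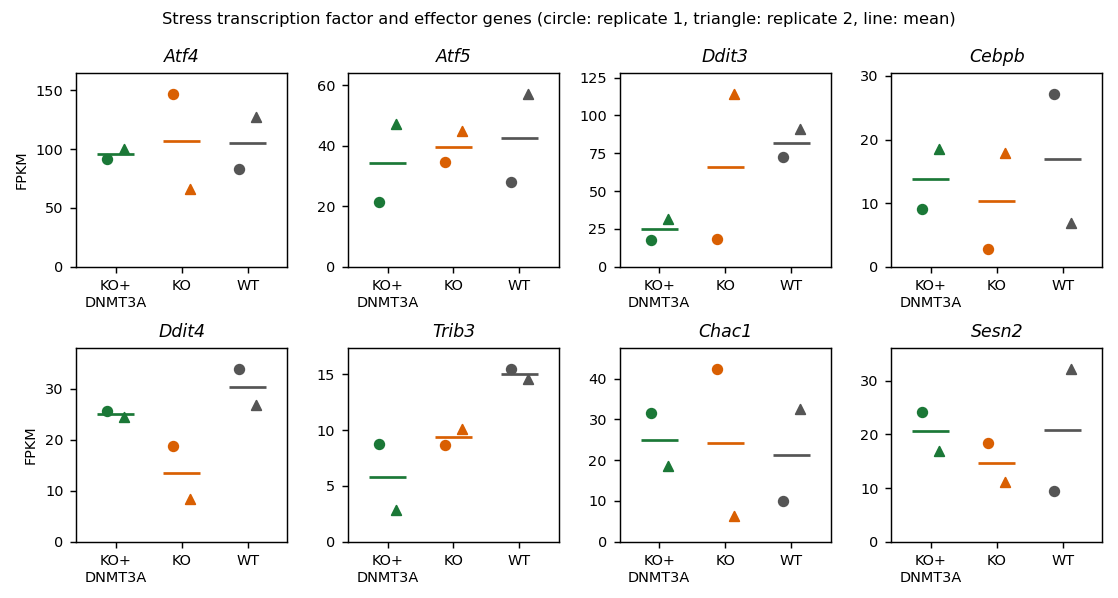
FPKM of the 4 stress transcription factor genes (top) and the 4 stress effector genes (bottom) in KO+DNMT3A, KO and WT; circles are replicate 1, triangles replicate 2 and lines the mean of the 2. Trib3 is at most 10.1 FPKM in all KO+DNMT3A and KO libraries and at least 14.6 FPKM in both WT libraries, and the 3 groups of Ddit4 do not overlap.

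The enzymes of amino acid synthesis likewise differed within groups. Asns, asparagine synthetase and a classic ATF4 target with the core before its start, was 55.4 and 32.7 in KO+DNMT3A, 80.0 and 21.2 in KO, and 28.3 and 55.9 FPKM in WT; the KO libraries enclosed all the others. Psat1, the aminotransferase of serine synthesis, was 3.67 and 1.54 in KO+DNMT3A, 4.74 and 0.92 in KO, and listed at 0 and at 3.25 FPKM in WT. Its log2 fold change of KO+DNMT3A against WT, 0.74 (SE 0.86, limma adjusted p = 0.997), was -0.30 without WT replicate 1. A transcript of 2 kb is worth 2.04 FPKM per fragment in that library, so its value of 0 is within what the depth leaves undetected.

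Phgdh, the first enzyme of serine synthesis, had its lowest mean in KO: 8.72 and 4.99 in KO+DNMT3A, 4.40 and 2.23 in KO, and 4.27 and 9.31 FPKM in WT. Both KO+DNMT3A values were above both KO values, whereas KO and WT overlapped. The Phgdh values of KO+DNMT3A replicate 2 and KO replicate 1 rest on about 10.6 and 11.9 fragments. Those of KO replicate 2 and WT replicate 1 rest on about 3.30 and 1.98. KO+DNMT3A against KO gave a log2 fold change of 0.87 (SE 0.60, limma unadjusted p = 0.189, adjusted p = 1), and KO against WT one of -0.82 (SE 0.60, limma unadjusted p = 0.212, adjusted p = 1). Phgdh has 9 processed pseudogenes with at least 95% identity to its transcript, the closest at 98.8%, so reads may be shared among them and its level is uncertain. Mthfd2, a mitochondrial folate enzyme, was 15.1 and 19.7 in KO+DNMT3A, 23.3 and 10.3 in KO, and 5.77 and 26.7 FPKM in WT. The other 4 enzyme genes, Psph, Shmt2, Aldh1l2 and Pycr1, ranged from 1.04 to 30.4 FPKM; Shmt2, the mitochondrial serine hydroxymethyltransferase, was the most abundant and Aldh1l2 and Psph the least.

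Among transporters, the heavy and light chains of the large neutral amino acid exchanger were low in the same libraries. Slc3a2, the heavy chain CD98, was 26.7 and 10.6 in KO+DNMT3A, 29.3 and 7.52 in KO, and 3.69 and 17.9 FPKM in WT. Slc7a5, the light chain LAT1, was 12.8 and 12.5 in KO+DNMT3A, 18.4 and 7.14 in KO, and 7.59 and 20.5 FPKM in WT. In both genes the KO and WT libraries with little insulin RNA held the lowest values. The log2 fold change of Slc3a2 for KO+DNMT3A against WT was 0.93 (SE 0.92, limma adjusted p = 0.997), and -0.078 without WT replicate 1.

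Slc7a11, the cystine importer gene with 2 core matches, was low throughout, at 1.76 and 1.20 in KO+DNMT3A, 1.39 and 0.41 in KO, and 0.78 and 1.11 FPKM in WT. Both KO+DNMT3A values were above both WT values by a small margin, but the KO replicate 2 and WT replicate 1 values rest on about 2.94 and 1.76 fragments. Slc1a5, the glutamine transporter ASCT2, was 2.34 and 2.59 in KO+DNMT3A, 1.83 and 1.86 in KO, and 7.70 and 1.64 FPKM in WT. The fitted log2 fold change for KO over WT was -0.75 (SE 0.66, limma adjusted p = 1) and 0.11 without WT replicate 1. In that library the Slc1a5 value rests on about 5.29 fragments, and the summed duct and stellate markers were highest. The other Slc1a5 values rest on about 4.07 to 12.6 fragments, the fewest in KO replicate 2. Slc38a2, a transporter of small neutral amino acids, stayed between 26.9 and 37.5 FPKM in all 6 libraries.

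The synthetases join each amino acid to its tRNA, and cytosolic forms of 18 of them were read. Per length, Nars, the asparaginyl synthetase, was the most abundant: 107.6 and 88.0 in KO+DNMT3A, 115.6 and 81.3 in KO, and 86.9 and 103.8 FPKM in WT. Its lowest library was above the highest value of any other synthetase, 48.3 FPKM. Gars, the glycyl synthetase, was 47.0 and 27.2 in KO+DNMT3A, 42.6 and 18.6 in KO, and 22.4 and 48.3 FPKM in WT. Sars, the seryl synthetase, was 29.0 and 25.2 in KO+DNMT3A, 31.8 and 37.5 in KO, and 29.0 and 33.4 FPKM in WT. Gars, Sars, Kars and Tars had mean levels of 34.3, 31.0, 28.8 and 28.4 FPKM over the 6 libraries, and these neighbours did not differ beyond their spread. Qars, the glutaminyl synthetase, was the lowest, at 0.85 to 2.56 FPKM.

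Synthetase genes divided into steady and variable ones. Aars, Yars, Nars and Sars kept their highest value within 1.5 times the lowest. Hars and Iars spanned more than 5-fold, with Hars at 29.4 and 11.3 in KO+DNMT3A, 26.1 and 5.80 in KO, and 10.3 and 17.6 FPKM in WT. Iars, the isoleucyl synthetase, was 9.13 and 5.85 in KO+DNMT3A, 8.97 and 4.19 in KO, and 1.82 and 6.87 FPKM in WT. Its log2 fold change of KO+DNMT3A against WT was 0.82 (SE 0.68, limma adjusted p = 0.997), and 0.083 without WT replicate 1, whose value rests on about 1.97 fragments. Iars has 1 processed pseudogene with 96.0% identity over 1656 bases. Lars, the leucyl synthetase, which also reports leucine to mTORC1, was 33.6 and 21.1 in KO+DNMT3A, 23.1 and 8.97 in KO, and 12.7 and 28.2 FPKM in WT. KO+DNMT3A against KO gave 0.84 on the log2 scale (SE 0.69, limma adjusted p = 1), and 0.20 without KO replicate 2. Eprs, which joins both glutamate and proline, was 9.82 and 9.75 in KO+DNMT3A, 7.98 and 12.9 in KO, and 13.0 and 14.6 FPKM in WT, so KO+DNMT3A and KO both lay below WT, KO only narrowly. Apart from Qars, the synthetases not given by library, Aars, Dars, Kars, Mars, Rars, Tars, Vars, Wars and Yars, ranged from 4.75 to 38.9 FPKM.

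**Figure D4:**
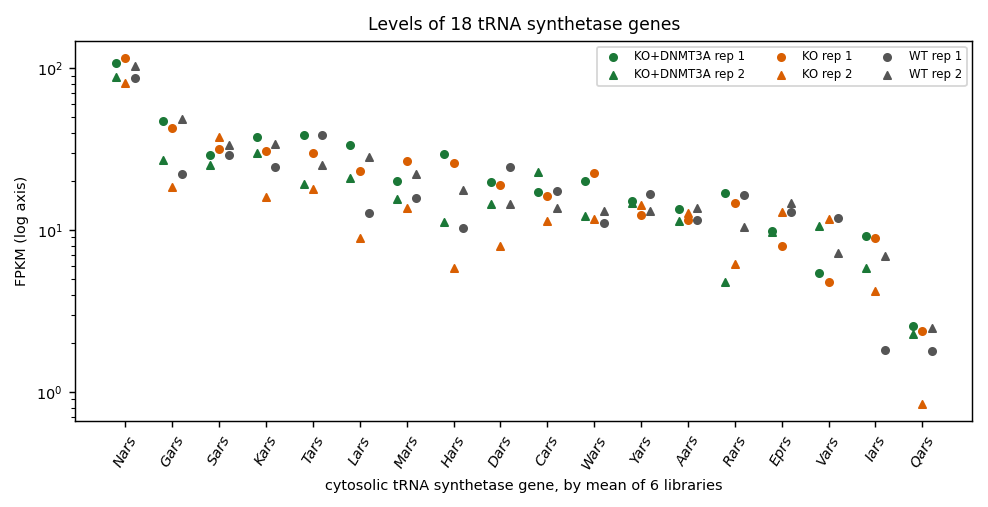
FPKM (log axis) of the 18 synthetase genes, ordered by their mean over the 6 libraries, with KO+DNMT3A, KO and WT from left to right within a gene, circles for replicate 1 and triangles for replicate 2. Nars stands above the rest at 81.3 to 115.6 FPKM, Qars is lowest, and the triangles of KO (replicate 2) are the lowest points for 10 of the 18 genes.

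Libraries labelled KO were compared with WT, a comparison meant by its labels for loss of Raptor, which the Rptor values do not show. By mean log2 values 29 of the 39 genes were lower in KO and 10 higher, or 25.6%, against 52.4% of all genes. The median log2 fold change was -0.17, against 0.03 for all 13233 genes tested. The median was 0.15 without KO replicate 2, 0.06 without WT replicate 2, and 0.05 with both libraries poor in insulin left out. The medians of all genes in these fits were 0.16, 0.23 and -0.02. No direction is therefore given for the 39 genes as a group. Rescaling without insulin, mitochondrially encoded and rRNA-associated transcripts left 6 higher and 33 lower, with a median of -0.28. The median of all genes also fell under this rescaling, to -0.06, with 45.6% of all genes higher. All 4 transcription factor and all 4 effector genes had a lower mean log2 value in KO, but 2 of the 4 transcription factor genes had a higher one after quantile normalization, and 1 of each set of 4 did without the 2 libraries poor in insulin. Of the enzymes 3 of 8, of the transporters 2 of 5 and of the synthetases 5 of 18 had a higher mean log2 value in KO, with medians of -0.13, -0.08 and -0.19. These medians turned sign without KO replicate 2, to 0.67, 0.30 and 0.10, where the median of all genes was 0.16. The first 2 also did without WT replicate 2, to 0.33 and 0.04, where the median of all genes was 0.23. None of the 39 passed the limma test (adjusted p = 1 for each, and 0 with an unadjusted p under 0.05), where 0% of all genes passed and 1.81% had an unadjusted p under 0.05. In 3 genes, Ddit4, Eprs and Trib3, or 7.69%, both KO libraries were below both WT libraries, near the 10.5% of all genes with that pattern. No gene of the 39 had both KO libraries above both WT libraries, against 9.36% of all genes.

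Libraries labelled KO+DNMT3A were set against KO, a comparison meant by its labels for added Dnmt3a. By mean log2 values 29 of 39 genes were higher in KO+DNMT3A, or 74.4%, against 68.2% of all genes. The median log2 fold change of 0.14 was below that of all genes, 0.19. After median scaling, which brought the median of all genes to -0.01, it was -0.06 with 18 of 39 higher, and without KO replicate 2 it was -0.23. By role, 1 of 4 transcription factor genes, 3 of 4 effectors, 7 of 8 enzymes, 5 of 5 transporters and 13 of 18 synthetases were higher in KO+DNMT3A. After median scaling the first 2 counts stood, while 3 of 8 enzymes, 2 of 5 transporters and 9 of 18 synthetases were higher. Without the 2 libraries poor in insulin, 2 of 4 transcription factor genes, 2 of 4 effectors, 1 of 8 enzymes, 2 of 5 transporters and 8 of 18 synthetases were higher, and the enzyme median was -0.58. In that fit the median of the 39 genes was -0.23 and that of all genes 0.07, with 55.3% of all genes higher. None of the 39 genes passed (limma adjusted p = 1 for each; 0 with an unadjusted p under 0.05, against 1.11% of all genes, of which 0% passed). In 5 genes, or 12.8%, both KO+DNMT3A libraries were above both KO libraries, against 17.2% of all genes: Cars, Ddit4, Phgdh, Slc1a5 and Yars. The KO replicate 2 values of Phgdh and Slc1a5 rest on about 3.30 and 4.07 fragments. Cars, the cysteinyl synthetase, had 17.2 and 22.8 in KO+DNMT3A, against 16.2 and 11.3 FPKM in KO. Sars was the only gene of the 39 lower in both, or 2.56%, against 5.43% of all genes.

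Libraries labelled KO+DNMT3A were also set against WT, and since any 2 of the 3 comparisons share a group, they are not independent. By mean log2 values 22 of the 39 genes were higher, or 56.4%, against 64.8% of all genes, and 17 were lower. Their median was 0.04, against 0.23 for all genes. After median scaling, 10 of the 39 were higher and 29 lower, with a median of -0.17. The median of all genes was then 0.03, with 51.8% of all genes higher. All 4 transcription factor genes had a lower mean log2 value in KO+DNMT3A under each of the 3 other scalings as well, but 1 of them had a higher one without the 2 libraries poor in insulin. Of the synthetases 10 of 18 were higher, 5 of 18 after median scaling and 8 of 18 without those 2 libraries. None of the 39 passed (limma adjusted p of 0.997 or more; 0 with an unadjusted p under 0.05, against 2.86% of all genes, of which 0% passed). In Ddit3, Ddit4, Eprs and Trib3, or 10.3%, both KO+DNMT3A libraries were below both WT libraries, against 7.87% of all genes. Slc7a11 alone was above, 2.56% against 19.2%. The summed level of 9 macrophage markers was 235 and 158 in KO+DNMT3A, 513 and 322 in KO, and 525 and 508 FPKM in WT, with none of the 9 at 0 in any library. In 7 of the 9, Ptprc and C1qa excepted, both KO+DNMT3A libraries were below both WT libraries, and the part of these cells in the Ddit3 and Trib3 values was not tested.

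**Figure D5:**
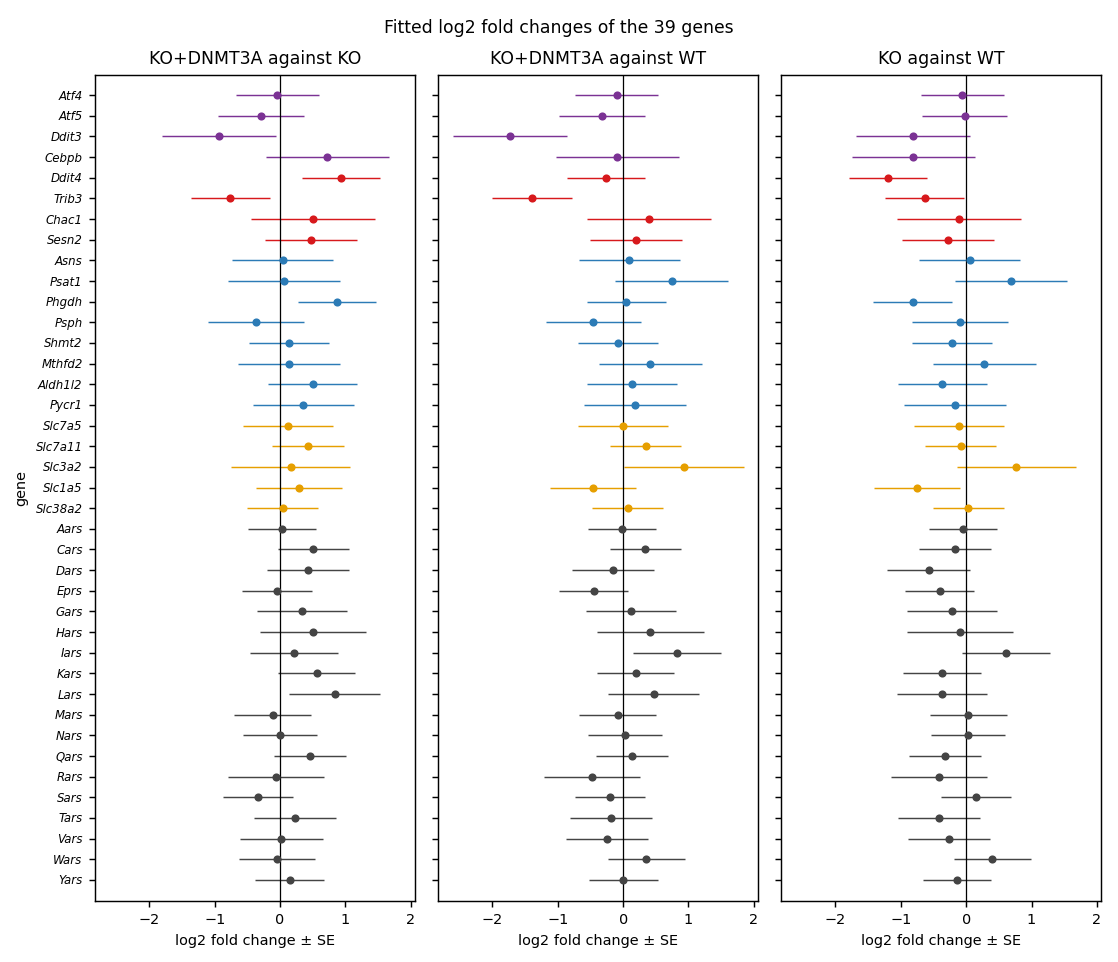
Fitted log2 fold changes on the log2(FPKM + 1) scale (points) with standard errors (bars) for the 39 genes in the 3 comparisons, coloured by role. The lowest points are those of Ddit3, at -1.73, and Trib3, at -1.39, for KO+DNMT3A against WT, and no gene passed.

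Other genes of the pathway gave no calls either. Of 10 genes for eIF2 kinases and their activator GCN1, eIF2 subunits and eIF2 phosphatase subunits, 0 passed limma in any comparison and 0 had an unadjusted p under 0.05, with medians of 0.20 for KO+DNMT3A against KO, 0.05 for KO+DNMT3A against WT and 0.08 for KO against WT. Ppp1r15a, the stress-induced subunit GADD34 that directs the removal of phosphate from eIF2, was 7.25 and 4.21 in KO+DNMT3A, 8.24 and 9.03 in KO, and 5.17 and 7.06 FPKM in WT. Of 30 further ATF4 and CHOP targets 25 were tested and 0 passed or had an unadjusted p under 0.05, with medians of 0.15, 0.03 and -0.04 in the same order. Nupr1, a stress-induced chromatin protein gene, was 14.7 and 20.4 in KO+DNMT3A, 22.3 and 17.8 in KO, and 28.1 and 30.4 FPKM in WT, with WT above the rest (log2 fold change of -0.72, SE 0.54, for KO+DNMT3A against WT, limma adjusted p = 0.997). Cth, which makes cysteine from cystathionine, was 0.59 FPKM and listed at 0 in KO+DNMT3A, 1.18 and listed at 0 in KO, and 5.74 and 0.58 FPKM in WT.

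Among the other serine, glycine and folate enzymes 11 of 17 were tested, and among the mitochondrial synthetases 14 of 17. For KO+DNMT3A against KO, KO+DNMT3A against WT and KO against WT, the medians of the first list were 0.21, 0.58 and 0.41. Those of the second were 0.08, -0.02 and -0.0004, and those of all genes 0.19, 0.23 and 0.03. In the first list 0 genes passed limma and 0 had an unadjusted p under 0.05, and in the second 0 passed and 1 had one, Fars2, the mitochondrial phenylalanyl synthetase. Fars2 was 9.07 and 4.21 in KO+DNMT3A, 4.62 and 3.01 in KO, and listed at 0 and at 1.93 FPKM in WT, with a log2 fold change of 2.08 (SE 0.69) for KO+DNMT3A against WT (limma unadjusted p = 0.0169, adjusted p = 0.997). Pycrl, a proline-synthesis reductase gene, was 23.1 and 9.26 in KO+DNMT3A, 14.5 and 5.68 in KO, and listed at 0 and at 9.11 FPKM in WT. The mitochondrial leucyl synthetase gene Lars2 read 1075 to 12195 FPKM, but it was counted here with the rRNA-associated transcripts, so its value is uncertain. The 3 scaffold genes of the multisynthetase complex, which holds 8 of the 18 synthetases, also had 0 calls; Eef1e1 was 26.2 and 7.80 in KO+DNMT3A, 23.8 and 6.21 in KO, and 39.6 and 19.9 FPKM in WT.

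Some annotated neighbours limit single values further. Cebpb shares 20.7% of its exon bases with Tmem189, Aldh1l2 14.1% with D10Wsu102e, Psph 10.4% with Cct6a, each on the opposite strand, and Aars 14.3% with Exosc6 on the same strand. A stretch of 373 bases of the longest Slc7a11 transcript matches the tubulin genes Tuba1a, Tuba1b and Tuba1c at 95.4% to 96.3% identity.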

How the data were processed

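The authors deposited 1 table of FPKM per gene for 6 islet poly-A libraries, per the file headers. The submitters' processing notes list, without saying what each did, the mm10 build, StringTie 1.3.0, HISAT2 2.0.4 and edgeR. Libraries were grouped by their titles, and no column was left out. A level of 1 FPKM or more in 2 or more libraries was required, which left 13233 genes. These were transformed as log2 of FPKM plus a pseudocount of 1, and fitted together in limma 3.58.1 (R 4.3.3) with a trended, robust empirical Bayes step. P-values are two-sided and were adjusted by the Benjamini-Hochberg method over all kept genes, with a threshold of 0.05. Fold changes are of log2(FPKM + 1) and understate changes of low genes. The fit was also run on simulated normal values with planted changes, at the spread of these data and at a smaller one. How many planted changes passed is not given here. How large a change the test can find with 2 libraries a group is therefore not stated.

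The 39 genes, the pathway and marker lists and the rule for named genes were chosen with earlier results of these data known. The rule gives every library's value for 15 stress, enzyme and transporter genes, the 3 synthetases with the highest mean and the 5 genes with the smallest p per comparison; Hars, Eprs, Cars and Lars2 were named after their values were seen. Depth was estimated on genes that have 1 transcript in the annotation, whose values were whole multiples of 1 fragment within 0.01 for 84.5% to 91.8% of values up to 20 fragments; fragments per gene assume the longest transcript. Copies were searched with BLAST 2.17.0 among GENCODE M21 transcripts (at least 95% identity over at least 200 bases). Python 3.11.15 was used for tables and figures. Alternatives were another pseudocount, filter, scaling or variance model, a replicate block and each library left out.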

Additional observations from a re-analysis of the deposited data

How the results depend on the processing

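No gene and none of the 39 passed under any of the 17 alternatives run per comparison (limma, smallest adjusted p of any of the 39 genes 0.291 for KO+DNMT3A against WT, 0.304 for KO against WT and 0.9998 for KO+DNMT3A against KO). The median log2 fold change of the 39 genes ranged from -0.62 to 0.15 for KO against WT, from -0.23 to 0.68 for KO+DNMT3A against KO and from -0.11 to 0.19 for KO+DNMT3A against WT with each library left out in turn. With the replicate block 0 genes were called in each comparison. Each group holds 1 library of each number, so a block cannot change the medians of the 39 genes, which stayed at -0.17, 0.14 and 0.04. The numbers share no stated origin: same-numbered deviations correlated at -0.27 for KO with WT, 0.32 for KO+DNMT3A with KO and 0.10 for KO+DNMT3A with WT. A crossed block, added after the data were seen, also called 0 genes. The block followed the sample titles, whereas the column names carry other numbers, also without a stated origin. In those, WT replicate 1, KO replicate 2 and KO+DNMT3A replicate 2 share the same number, and neither block grouped these libraries. Leaving out 1 library turned the sign of Ddit3 for KO against WT (-2.10 to 0.48) and for KO+DNMT3A against KO (-2.22 to 0.36), of Slc1a5 for KO against WT (-1.61 to 0.11), and of Slc3a2 (-0.078 to 1.94) and Psat1 (-0.30 to 1.78) for KO+DNMT3A against WT; the cause was not tested. Without both libraries poor in insulin RNA, a fit added after the data were seen, the median for KO+DNMT3A against KO was -0.23, and Slc1a5 was 0.10, Ddit3 0.36 for KO+DNMT3A against KO and -2.25 for KO against WT, Slc3a2 -0.078 and Psat1 -0.30. In that fit, 1 KO and 1 WT library are assumed to vary like the KO+DNMT3A libraries. WT replicate 1 was the shallowest library.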
